A study of Homo sapiens with 12 samples.

Results

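Interferon-stimulated genes were followed across 12 RNA-seq libraries of DU145 cells, a human prostate cancer line, with a control hairpin or the hairpin labelled shSigma. The group holds 38 genes of 28747 gene identifiers in the count table, chosen by symbol from the genes that cells turn on after interferon, with earlier results of these data known. The 38 genes were read in 5 roles, namely 5 transcription factors and sensors, 13 RNA-binding and nucleotide-handling effectors, 6 membrane and GTPase effectors, 6 genes of the ISG15 and ubiquitin type (the modifier and its enzymes), and 8 other induced genes. All cells carried a lentiviral short hairpin RNA, either the control (shCtrl) or shSigma, and the stable lines were kept by puromycin selection. Whether a line derived from 1 clone is not given in the sources used here. The labels name only shCtrl and shSigma, so an effect of the hairpin or knockdown below means shSigma against shCtrl cells. Other differences between the lines cannot be told apart from those due to the hairpin. Each line was grown as adherent cells in medium with serum, or as floating tumor spheres on a non-adhesive coating in serum-free medium with B-27, insulin, FGF2 and EGF, a condition meant to enrich stem-like cells. Each of the 4 groups (adherent shCtrl, adherent shSigma, tumor sphere shCtrl, tumor sphere shSigma) had 3 libraries from replicates that the study describes as independent. The labels name no interferon treatment.

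Interferons are secreted proteins that bind paired receptors and, through the kinases JAK1 and TYK2, activate transcription factors of the STAT family. STAT2 and IRF9 are parts of a complex that binds the interferon-stimulated response element in gene promoters and raises a large set of genes, many of which bind viral RNA, block entry or tag proteins with ISG15. Nucleic acid sensors such as RIG-I, MDA5 (IFIH1) and the cGAS and STING1 pair lead to interferon production, and IRF1 and unphosphorylated STAT complexes can keep parts of the program on without added interferon. In epithelial tumors the program is known to be set at different levels in different cell lines.

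The response element was looked for as GAAA, any 2 bases and GAAA again, on both strands, in windows of 300 bases around each transcription start (250 before to 50 after) given by RefSeq for GRCh38.p14. It was present in 1255 of 35116 windows of all genes, which is 3.57%, and in a window of 1195 of 27305 gene symbols, which is 4.38%. Of the 38 genes, 31 had a window and 22 of these held the motif. A match describes the letters and not a binding site. The stretches below are shown because they belong to genes with large differences between groups, and HERC5 and IFIT5 because theirs were small. Capitals mark the motif, and TTTC, 2 bases and TTTC is the same motif on the opposite strand.
IFIT1 (chr10:89392497-89392526, plus strand): ctagctttagTTTCACTTTCccctttcggt
IFIT3 (chr10:89332468-89332497, plus strand): gttccatcagTTTCACTTTCctttcccctt
DDX60 (chr4:168318821-168318850, minus strand): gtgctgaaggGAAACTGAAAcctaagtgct
SAMD9 (chr7:93118096-93118125, minus strand): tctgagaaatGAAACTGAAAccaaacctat
IFITM1 (chr11:314024-314053, plus strand): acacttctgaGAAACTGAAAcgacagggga
IFITM3 (chr11:320876-320905, minus strand): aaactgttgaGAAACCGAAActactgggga
BST2 (chr19:17405738-17405767, minus strand): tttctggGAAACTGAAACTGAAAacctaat
ISG15 (chr1:1013377-1013406, plus strand): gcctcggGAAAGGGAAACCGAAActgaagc
DTX3L (chr3:122564322-122564351, plus strand): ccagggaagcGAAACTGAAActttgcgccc
LGALS3BP (chr17:78979962-78979991, minus strand): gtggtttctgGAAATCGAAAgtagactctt
HERC5 (chr4:88457035-88457064, plus strand): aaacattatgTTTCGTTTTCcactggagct
IFIT5 (chr10:89414554-89414583, plus strand): atttcttaagTTTCAGTTTCtgagcgctcg
In BST2 and ISG15 overlapping copies of the motif form 1 run. The DTX3L stretch covers the start of DTX3L. It was found in the DTX3L window and in a window of PARP9, which is read in the opposite direction. Another PARP9 window did not hold the motif. STAT2, IRF1, OAS1, CMPK2, SAMD9L, HERC6, IFI35 and XAF1 had windows without these letters, and so had IRF9.

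Total counts were 23668070 to 26957777 in adherent shCtrl, 19542016 to 22006759 in adherent shSigma, 16472722 to 19164645 in tumor sphere shCtrl and 18626387 to 19698970 in tumor sphere shSigma libraries. Levels below are CPM (reads of a gene per 1000000 counts) over these totals after scaling, so a count of 0 in a library allows up to 3 counts, or 0.115 to 0.176 CPM, and this limit covers counting error only. Tests are the quasi-likelihood test of edgeR, and its p-values, adjusted by Benjamini and Hochberg's method across all tested genes, are the adjusted p given throughout. KLK3 and KLK2, markers of luminal prostate cells, had at most 0.032 CPM in a group mean. Epithelial markers were high, with EPCAM at 235 ± 26.2, 30.9 ± 1.37, 613 ± 44.1 and 61.9 ± 1.53 CPM (SD, n = 3) in adherent shCtrl, adherent shSigma, tumor sphere shCtrl and tumor sphere shSigma cells. The 6 epithelial markers summed to 1404 to 1734, 2549 to 3446, 2831 to 2967 and 1561 to 1667 CPM in the same order, and their part in the results was not tested. In shSigma against shCtrl cells, 4 of the 6 were called higher and 2 lower in adherent culture, and 1 higher and 4 lower in tumor spheres. EPCAM, with lower means in shSigma cells, thus went against most of its list in adherent culture. Of 8 leukocyte markers, the summed level was 0.677 to 2.20 CPM over all libraries, and NKG7 was at 0 in all of them. The 7 fibroblast and endothelial markers summed to 3.69 to 8.40 CPM in adherent shCtrl and 4.20 to 6.90 CPM in adherent shSigma libraries. In tumor spheres they summed to 19.7 to 25.5 CPM in shCtrl and 10.5 to 14.8 CPM in shSigma libraries. Their part in the results was not tested. In these bulk samples fewer cells with a transcript and less transcript per cell cannot be told apart.

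Most of the genes were lowest in adherent control cells. Summed over the 38 genes, adherent shCtrl libraries had 409 to 445 CPM, adherent shSigma libraries 650.1 to 656 CPM, tumor sphere shCtrl libraries 726 to 809 CPM and tumor sphere shSigma libraries 780.4 to 827 CPM, so that only the ranges of the 2 sphere groups overlapped. Of 31 genes with enough counts for a test in at least 1 comparison, 24 had their lowest group mean in adherent shCtrl cells, beside 30.8% of all 14175 genes, and in 20 of these all 3 adherent shCtrl libraries lay below all 9 others, beside 10.7%. The highest group mean was in tumor sphere shSigma cells for 15 genes, in tumor sphere shCtrl cells for 11, in adherent shSigma cells for 4 (DDX60, SAMD9L, HERC6 and DTX3L) and in adherent shCtrl cells for 1 (IFIT5). Per kilobase of exon, IFITM2 was the highest of the 38 in adherent shCtrl (37.7 CPM per kilobase) and in adherent shSigma cells (19.5). In tumor spheres IFI6 led, with 52.6 CPM per kilobase in shCtrl and 42.4 in shSigma cells, the second value close to the 42.3 of LGALS3BP.

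**Figure D1:**
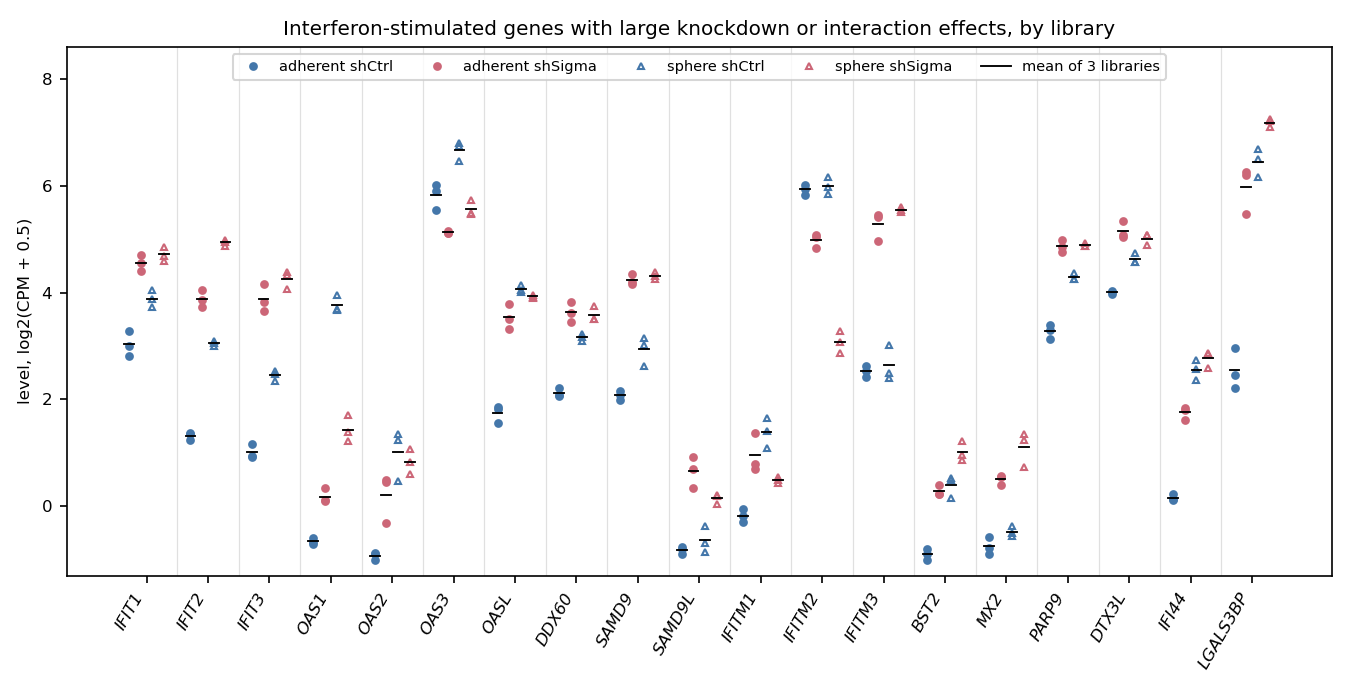
Level of 19 interferon-stimulated genes in each of the 12 libraries, as log2(CPM + 0.5), with circles for adherent cells, triangles for tumor spheres, blue for shCtrl, red for shSigma and a bar at the mean of 3 libraries. The filled blue circles (adherent shCtrl) are the lowest group for 17 of the 19 genes, the exceptions being OAS3 and IFITM2.

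The first question was how shSigma and shCtrl cells differed in adherent culture. Of 29 genes tested, 21 were higher in shSigma than in shCtrl cells, 2 were lower and 6 did not pass the test at an adjusted p under 0.05. Over all 13764 genes tested, 22.3% were called higher and 27.7% lower. The median log2 fold change of the 29 genes was 1.51 against -0.01 for all genes. Changes over 1 on the log2 scale were reached upward by 16 of the 29 (7.59% of all genes) and downward by 1 (6.13%). The libraries of the 2 groups did not overlap for 22 genes with shSigma above (30.1% of all genes) and 3 with shSigma below (27.8%).

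In tumor spheres genes were called in both directions. Of 30 tested, 14 were higher in shSigma cells, 8 were lower and 8 did not pass, beside 30.2% called higher and 30.9% called lower of all 13774 genes. The median log2 fold change was 0.30 against 0.00 for all genes, within a range from -3.00 for IFITM2 to 2.98 for IFITM3. Changes over 1 were reached upward by 5 genes (5.94% of all genes) and downward by 4 (7.17%). Libraries did not overlap for 13 genes with shSigma above (33.5%) and 9 with shSigma below (33.3%), so the count of lower genes was near that of all genes by either measure. Of the 28 genes tested in both cultures, 13 were called higher in both, beside 14.2% of all 13391 genes tested in both. They were IRF1, IFIT1, IFIT2, IFIT3, DDX60, SAMD9, IFITM3, BST2, MX2, HERC5, PARP9, DTX3L and LGALS3BP. STAT2, OAS1 and IFITM1 were called higher in adherent cells and lower in tumor spheres (2.05% of all genes), and OAS3 and IFITM2 were called lower in both (17.7%). None of the 28 was called lower in adherent cells and higher in tumor spheres (2.07%). The 2 comparisons use separate control libraries.

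Transcription factors and the sensor moved by less than 1 on the log2 scale with the hairpin. IFIH1, which encodes the double-stranded RNA sensor MDA5, had 15.6 ± 0.664, 15.9 ± 1.27, 19.9 ± 0.953 and 15.1 ± 1.10 CPM (SD, n = 3) in adherent shCtrl, adherent shSigma, tumor sphere shCtrl and tumor sphere shSigma cells. It fell with the hairpin in tumor spheres, by a log2 fold change of -0.40 ± 0.09 (SE, adjusted p = 0.00209), and had -0.04 ± 0.09 (SE, adjusted p = 0.743) in adherent cells. STAT2, a part of the interferon-activated complex, had 97.1 ± 2.48, 138 ± 8.83, 143 ± 3.91 and 127 ± 11.1 CPM in the same order. Its knockdown changes were 0.44 ± 0.06 (SE, adjusted p = 0.000645) in adherent cells and -0.17 ± 0.07 (SE, adjusted p = 0.0401) in tumor spheres. The call in tumor spheres was lost in 6 of 13 alternative fits, with an adjusted p of up to 0.203, among them those without tumor sphere shCtrl replicate 1 or 3 or tumor sphere shSigma replicate 1 or 3. IRF1, a transcription factor that drives interferon and inflammatory genes, rose in both cultures, by 0.37 ± 0.08 (SE, adjusted p = 0.00849) and 0.57 ± 0.08 (SE, adjusted p = 5.24e-05). IRF7 and IRF9 had 0 counts in all 12 libraries. IRF9 lies within a longer readthrough gene on the same strand that is not in the count table, and how reads shared by overlapping genes were counted is not given in the sources used here, so its 0 and those of IRF7 and IFI27 are those of the table only.

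The IFIT genes, which bind viral RNA ends and lie side by side on chromosome 10 (chr10:89283694-89309271 for IFIT2, chr10:89327307-89377473 for IFIT3, chr10:89392546-89406487 for IFIT1 and chr10:89414568-89421605 for IFIT5, GRCh38), split into 3 that rose with the hairpin and 1 that did not pass. IFIT2 had 2.04, 1.86 and 2.09 CPM in adherent shCtrl, 14.0, 12.9 and 15.97 CPM in adherent shSigma, 7.49, 7.78 and 8.06 CPM in tumor sphere shCtrl and 31.3, 28.9 and 30.5 CPM in tumor sphere shSigma libraries. Its 4 groups did not overlap, in the order adherent shCtrl, tumor sphere shCtrl, adherent shSigma and tumor sphere shSigma. The log2 fold change with the hairpin was 2.77 ± 0.13 (SE, adjusted p = 7.95e-06) in adherent cells and 1.95 ± 0.09 (SE, adjusted p = 5.1e-09) in tumor spheres. IFIT3 had 1.42, 1.40 and 1.74 CPM in adherent shCtrl, 13.6, 12.1 and 17.4 CPM in adherent shSigma, 4.57, 5.24 and 5.09 CPM in tumor sphere shCtrl and 19.7, 16.3 and 20.3 CPM in tumor sphere shSigma libraries. The order was that of IFIT2, but the 2 shSigma groups overlapped. IFIT3 rose by 3.17 ± 0.17 (SE, adjusted p = 1.24e-05) and 1.91 ± 0.12 (SE, adjusted p = 9.73e-08). IFIT1 had 9.18, 7.53 and 6.51 CPM in adherent shCtrl, 20.7, 23.1 and 25.7 CPM in adherent shSigma, 12.7, 16.1 and 14.2 CPM in tumor sphere shCtrl and 28.6, 23.7 and 25.4 CPM in tumor sphere shSigma libraries. Both control groups lay below both shSigma groups, which overlapped each other. IFIT1 rose by 1.51 ± 0.15 (SE, adjusted p = 0.000194) and 0.85 ± 0.10 (SE, adjusted p = 2.47e-05). IFIT5 had 21.7 ± 2.06, 21.5 ± 2.83, 19.6 ± 0.347 and 19.2 ± 2.52 CPM in adherent shCtrl, adherent shSigma, tumor sphere shCtrl and tumor sphere shSigma cells and did not pass in any of the 5 comparisons, although its promoter window held 3 copies of the motif. LIPA overlaps IFIT1, IFIT2 and IFIT3 on the other strand, and the use of strand in counting is not given in the sources used here.

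The oligoadenylate synthetases, enzymes that make the activator of RNase L, went different ways. OAS1 (chr12:112905856-112933219) had 0.115, 0.127 and 0.158 CPM in adherent shCtrl, 0.762, 0.563 and 0.579 CPM in adherent shSigma, 12.4, 12.3 and 15.1 CPM in tumor sphere shCtrl and 1.81, 2.76 and 2.12 CPM in tumor sphere shSigma libraries. No 2 groups overlapped, and tumor sphere shCtrl cells were the highest. In adherent cells OAS1 rose with the hairpin by 2.15 ± 0.36 (SE, adjusted p = 0.00203), from 3, 3 and 4 to 16, 11 and 12 counts, a ratio of 4.78 (95% interval 2.34 to 10.7) from the summed counts with exact binomial limits that cover counting error only. In tumor spheres it fell, with a log2 fold change of -2.58 ± 0.16 (SE, adjusted p = 1.03e-07). OAS2 (chr12:112978395-113011723) had 0.0384, 0.0423 and 0 CPM in adherent shCtrl, 0.905, 0.307 and 0.868 CPM in adherent shSigma, 2.05, 0.883 and 1.86 CPM in tumor sphere shCtrl and 1.01, 1.27 and 1.59 CPM in tumor sphere shSigma libraries. Adherent shCtrl libraries lay below all others at 1, 1 and 0 counts, and the 2 sphere groups overlapped. It was not tested in adherent cells, where the ratio of summed counts was 26.3 (95% interval 6.86 to 224), and in tumor spheres its change was -0.32 ± 0.31 (SE, adjusted p = 0.395). OAS3 (chr12:112938051-112976460) had 46.0, 59.7 and 64.4 CPM in adherent shCtrl, 35.3, 34.2 and 34.3 CPM in adherent shSigma, 112, 87.7 and 106 CPM in tumor sphere shCtrl and 44.3, 44.1 and 52.4 CPM in tumor sphere shSigma libraries. Here adherent shSigma libraries were the lowest, tumor sphere shCtrl libraries the highest, and the other two groups overlapped. OAS3 fell with the hairpin in both cultures, with -0.77 ± 0.12 (SE, adjusted p = 0.0013) and -1.12 ± 0.10 (SE, adjusted p = 6.26e-06). OASL, a relative without synthetase activity that lies elsewhere on chromosome 12 (chr12:121017763-121039246), had 3.03, 2.45 and 3.12 CPM in adherent shCtrl, 9.43, 10.9 and 13.2 CPM in adherent shSigma, 15.6, 16.1 and 17.2 CPM in tumor sphere shCtrl and 15.1, 14.5 and 14.7 CPM in tumor sphere shSigma libraries. The groups did not overlap, with adherent shCtrl lowest and tumor sphere shCtrl highest. OASL rose by 1.89 ± 0.16 (SE, adjusted p = 8.26e-05) in adherent cells and had -0.15 ± 0.09 (SE, adjusted p = 0.152) in tumor spheres. An antisense gene overlaps OAS1, OAS2 and OAS3.

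The remaining RNA-handling effectors rose with the hairpin where they could be tested. DDX60 (chr4:168216291-168318883), a helicase linked to RIG-I type sensing, had 4.11, 3.68 and 3.71 CPM in adherent shCtrl, 11.7, 10.4 and 13.7 CPM in adherent shSigma, 8.08, 8.45 and 8.87 CPM in tumor sphere shCtrl and 10.8, 10.9 and 13.0 CPM in tumor sphere shSigma libraries. Adherent shCtrl cells were the lowest, tumor sphere shCtrl cells next, and the 2 shSigma groups overlapped above them. DDX60 rose by 1.57 ± 0.13 (SE, adjusted p = 8.37e-05) and 0.44 ± 0.11 (SE, adjusted p = 0.00446). SAMD9 (chr7:93099513-93118023), a restriction factor of poxviruses, had 3.73, 3.98 and 3.47 CPM in adherent shCtrl, 17.5, 17.8 and 19.97 CPM in adherent shSigma, 7.61, 5.69 and 8.42 CPM in tumor sphere shCtrl and 19.4, 18.5 and 20.4 CPM in tumor sphere shSigma libraries. Its groups stood in the order of DDX60, with changes of 2.24 ± 0.11 (SE, adjusted p = 1.07e-05) and 1.42 ± 0.13 (SE, adjusted p = 2.14e-06). Its neighbor SAMD9L (chr7:93130056-93148385) had 0.0768, 0.0846 and 0.0395 CPM in adherent shCtrl, 0.762, 1.13 and 1.40 CPM in adherent shSigma, 0.117, 0.276 and 0.0504 CPM in tumor sphere shCtrl and 0.655, 0.636 and 0.530 CPM in tumor sphere shSigma libraries. Both shSigma groups lay above both control groups, which overlapped near the floor at 2, 2 and 1 and 2, 5 and 1 counts. SAMD9L rose by 3.87 ± 0.44 (SE, adjusted p = 0.000307) in adherent cells, with a ratio of summed counts of 16.4 (95% interval 6.69 to 52.2). It was not tested in tumor spheres, where the ratio was 4.18 (95% interval 1.91 to 10.4). RSAD2 (viperin) and CMPK2 had no more than 10 and 5 counts in any library and were not tested.

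Membrane and GTPase effectors held the widest knockdown changes. The IFITM proteins sit in membranes and hinder viral entry, and their genes are near-identical neighbors on chromosome 11. IFITM1 (chr11:310041-315272) had 0.461, 0.381 and 0.316 CPM in adherent shCtrl, 1.24, 1.13 and 2.07 CPM in adherent shSigma, 1.64, 2.15 and 2.62 CPM in tumor sphere shCtrl and 0.857, 0.954 and 0.901 CPM in tumor sphere shSigma libraries. Adherent shCtrl was the lowest group and tumor sphere shSigma next, while adherent shSigma and tumor sphere shCtrl overlapped above them. The change was 1.86 ± 0.32 (SE, adjusted p = 0.0023) in adherent cells and -1.25 ± 0.24 (SE, adjusted p = 0.000804) in tumor spheres. IFITM2 (chr11:303655-309397) had 56.5, 61.2 and 64.0 CPM in adherent shCtrl, 33.1, 32.6 and 28.0 CPM in adherent shSigma, 57.2, 71.0 and 62.5 CPM in tumor sphere shCtrl and 7.91, 6.83 and 9.22 CPM in tumor sphere shSigma libraries. The 2 control groups overlapped, adherent shSigma cells lay below them and tumor sphere shSigma cells lay lowest. IFITM2 fell, with log2 fold changes of -1.01 ± 0.10 (SE, adjusted p = 0.000189) and -3.00 ± 0.11 (SE, adjusted p = 1.68e-09). IFITM3 (chr11:319676-329475) had 4.88, 5.29 and 5.68 CPM in adherent shCtrl, 43.5, 42.2 and 30.7 CPM in adherent shSigma, 4.80, 5.13 and 7.56 CPM in tumor sphere shCtrl and 48.1, 44.9 and 46.2 CPM in tumor sphere shSigma libraries. Its control groups overlapped at the bottom, and tumor sphere shSigma libraries lay above adherent shSigma libraries. IFITM3 rose by 2.82 ± 0.17 (SE, adjusted p = 2.3e-05) and 2.98 ± 0.13 (SE, adjusted p = 1.3e-08). Summed over the 3 genes, levels were 61.9, 66.9 and 70.0 CPM in adherent shCtrl, 77.8, 76.0 and 60.8 in adherent shSigma, 63.6, 78.3 and 72.7 in tumor sphere shCtrl and 56.9, 52.7 and 56.3 in tumor sphere shSigma libraries. The sums of the adherent groups thus overlapped although IFITM2 and IFITM3 moved in opposite directions. Reads that align to more than 1 of these copies can be split or dropped in counting, the handling is not given in the sources used here, and its part in these values was not tested. A readthrough gene also overlaps IFITM1 and IFITM2 on the same strand.

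BST2 (chr19:17402939-17405630), which encodes tetherin, a protein that holds budding virions at the cell surface, had 0.0768, 0 and 0.0395 CPM in adherent shCtrl, 0.809, 0.666 and 0.675 CPM in adherent shSigma, 0.937, 0.607 and 0.907 CPM in tumor sphere shCtrl and 1.81, 1.32 and 1.43 CPM in tumor sphere shSigma libraries. Adherent shCtrl cells were near 0, at 2, 0 and 1 counts, tumor sphere shSigma cells were the highest, and the other two groups overlapped. BST2 rose by 3.93 ± 0.56 (SE, adjusted p = 0.000898) and 0.89 ± 0.26 (SE, adjusted p = 0.0106), the second of which was lost with DESeq2 (adjusted p = 0.0508; range over 13 alternative fits 0.0087 to 0.0508). The ratio of summed counts in adherent cells was 18.0 (95% interval 5.76 to 90.4). MX2 (chr21:41361999-41409393), a GTPase that blocks nuclear entry of retroviruses, had 0.0384, 0.169 and 0.0789 CPM in adherent shCtrl, 0.809, 0.973 and 0.965 CPM in adherent shSigma, 0.176, 0.276 and 0.202 CPM in tumor sphere shCtrl and 1.16, 2.07 and 1.85 CPM in tumor sphere shSigma libraries. Both control groups lay below both shSigma groups. MX2 rose by 3.16 ± 0.43 (SE, adjusted p = 0.000713) and 2.91 ± 0.37 (SE, adjusted p = 3.6e-05), with ratios of summed counts of 9.80 (95% interval 4.46 to 25.5) and 7.72 (95% interval 4.23 to 15.5). MX1, its neighbor and a GTPase active against influenza virus, had 7.62 ± 0.163, 8.82 ± 0.959, 16.9 ± 2.80 and 10.9 ± 0.563 CPM in adherent shCtrl, adherent shSigma, tumor sphere shCtrl and tumor sphere shSigma cells. It fell in tumor spheres, with -0.64 ± 0.12 (SE, adjusted p = 0.000906), and had 0.14 ± 0.11 (SE, adjusted p = 0.306) in adherent cells. TMPRSS2, which overlaps MX1 on the other strand, had group means of 0.050 to 1.02 CPM.

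Of the ISG15 and ubiquitin type group, PARP9 and its partner DTX3L rose in both cultures. They share a promoter region on chromosome 3 and form a complex that adds ubiquitin and ADP-ribose. PARP9 (chr3:122527924-122564577) had 9.98, 8.29 and 9.35 CPM in adherent shCtrl, 28.6, 26.5 and 31.1 CPM in adherent shSigma, 18.5, 20.2 and 18.6 CPM in tumor sphere shCtrl and 28.8, 29.8 and 28.7 CPM in tumor sphere shSigma libraries. The order was adherent shCtrl, tumor sphere shCtrl, and then the 2 shSigma groups, which overlapped. PARP9 rose by 1.57 ± 0.11 (SE, adjusted p = 3.21e-05) and 0.60 ± 0.08 (SE, adjusted p = 3.04e-05). DTX3L (chr3:122564338-122575203) had 15.9, 15.6 and 15.2 CPM in adherent shCtrl, 32.4, 33.3 and 40.1 CPM in adherent shSigma, 23.4, 23.3 and 26.4 CPM in tumor sphere shCtrl and 29.0, 33.1 and 33.3 CPM in tumor sphere shSigma libraries. Its groups stood as those of PARP9, with changes of 1.11 ± 0.09 (SE, adjusted p = 8.02e-05) and 0.38 ± 0.09 (SE, adjusted p = 0.00246). HERC5, the main ligase for ISG15, rose by 0.32 ± 0.09 (SE, adjusted p = 0.0243) and 0.66 ± 0.09 (SE, adjusted p = 7.25e-05), the first of which was lost in 6 of 14 alternative fits with an adjusted p of up to 0.107, among them those without adherent shCtrl replicate 2 or 3 or adherent shSigma replicate 1 or 3. HERC6, its neighbor, had -0.04 ± 0.08 (SE, adjusted p = 0.721) and -0.02 ± 0.09 (SE, adjusted p = 0.871). USP18, which removes ISG15 and restrains the receptor, fell in tumor spheres, with -0.38 ± 0.10 (SE, adjusted p = 0.00449), and had -0.18 ± 0.10 (SE, adjusted p = 0.161) in adherent cells.

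ISG15, the ubiquitin-like modifier, had the widest replicate spread of the tested genes in 3 of the 4 groups. It had 1.46, 3.13 and 6.63 CPM in adherent shCtrl, 6.71, 8.14 and 1.83 CPM in adherent shSigma, 22.0, 17.3 and 23.7 CPM in tumor sphere shCtrl and 39.1, 28.2 and 23.2 CPM in tumor sphere shSigma libraries. The adherent groups overlapped, and both sphere groups lay above them. The knockdown change was 0.54 ± 0.70 (SE, adjusted p = 0.565) in adherent cells and 0.52 ± 0.19 (SE, adjusted p = 0.0366) in tumor spheres. The call in tumor spheres was lost in 8 of 13 alternative fits, with an adjusted p of up to 0.418, among them the fits without tumor sphere shCtrl replicate 1, 2 or 3 or without tumor sphere shSigma replicate 1.

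Among the other induced genes, LGALS3BP (chr17:78971238-78979947), a secreted galectin ligand, had 4.15, 4.99 and 7.26 CPM in adherent shCtrl, 73.5, 76.4 and 43.9 CPM in adherent shSigma, 90.1, 71.6 and 102 CPM in tumor sphere shCtrl and 151, 136 and 147 CPM in tumor sphere shSigma libraries. Adherent shCtrl cells were the lowest, tumor sphere shSigma cells the highest, and the other two groups overlapped. LGALS3BP rose by 3.51 ± 0.32 (SE, adjusted p = 0.000312) and 0.71 ± 0.11 (SE, adjusted p = 0.000454). IFI44 (chr1:78649796-78664078) had 0.576, 0.677 and 0.592 CPM in adherent shCtrl, 3.00, 2.56 and 3.09 CPM in adherent shSigma, 4.63, 5.41 and 6.20 CPM in tumor sphere shCtrl and 5.55, 6.73 and 6.83 CPM in tumor sphere shSigma libraries. Adherent shCtrl lay below adherent shSigma, which lay below the 2 overlapping sphere groups. IFI44 rose by 2.16 ± 0.18 (SE, adjusted p = 8.93e-05) in adherent cells and had 0.22 ± 0.15 (SE, adjusted p = 0.204) in tumor spheres. IFI6, a mitochondrial and endoplasmic reticulum protein, rose in adherent cells by 0.43 ± 0.10 (SE, adjusted p = 0.00786) and had -0.32 ± 0.16 (SE, adjusted p = 0.114) in tumor spheres. IFI35 had 0.53 ± 0.17 (SE, adjusted p = 0.0298) and 0.12 ± 0.09 (SE, adjusted p = 0.274), and its call in adherent cells was lost in 4 of 14 alternative fits, among them the fits without adherent shCtrl replicate 2, adherent shSigma replicate 1 or adherent shSigma replicate 2, with an adjusted p of up to 0.0948. IFI44L, with 5, 2 and 8 and 6, 2 and 7 counts in adherent shCtrl and shSigma libraries, was not tested there, and had 0.41 ± 0.23 (SE, adjusted p = 0.138) in tumor spheres. IFI27 had 0 counts in all libraries, and XAF1 and EPSTI1 had at most 9 and 7 counts in a library and were not tested.

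The second question was how the cultures differed within each line. In shCtrl cells 23 of 29 genes tested were higher in tumor spheres than in adherent cells, none was lower and 6 did not pass, beside 27.4% called higher and 26.3% called lower of all 13800 genes tested. At an unadjusted p under 0.05 the count of lower genes was 0 with edgeR, and DESeq2 called 0 lower. The median log2 fold change was 1.05 against 0.04 for all genes, and 15 genes rose by more than 1 (10.8% of all genes) and 0 fell by more than 1 (4.96%). Libraries did not overlap for 24 genes with tumor spheres above (31.9%) and 2 with tumor spheres below (30.8%). This comparison shares the adherent shCtrl libraries with the knockdown comparison in adherent cells. OAS1 had the largest change, 6.57 ± 0.21 (SE, adjusted p = 4.56e-07), from 3, 3 and 4 to 212, 222 and 299 counts, a ratio of summed counts of 99.9 (95% interval 54.0 to 209). OAS2 rose by 5.63 ± 0.65 (SE, adjusted p = 0.000226), BST2 by 4.17 ± 0.56 (SE, adjusted p = 0.000522), LGALS3BP by 4.01 ± 0.24 (SE, adjusted p = 2.15e-05) and IFI44 by 3.13 ± 0.20 (SE, adjusted p = 9.22e-06). ISG15 rose by 2.49 ± 0.47 (SE, adjusted p = 0.00414) and IFI6 by 2.24 ± 0.17 (SE, adjusted p = 3.63e-05). IFITM2 and IFITM3, the genes that moved most with the hairpin in tumor spheres, had 0.07 ± 0.09 (SE, adjusted p = 0.565) and 0.15 ± 0.19 (SE, adjusted p = 0.536).

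In shSigma cells 14 of 31 genes were higher in tumor spheres, 1 was lower and 16 did not pass, beside 21.9% called higher and 25.2% called lower of all 13622 genes tested. The median was 0.29 against 0.00 for all genes. Changes over 1 were reached upward by 8 genes (5.76% of all genes) and downward by IFITM2 alone (3.56%), which had -1.95 ± 0.14 (SE, adjusted p = 3.09e-05). Libraries did not overlap for 16 genes with tumor spheres above (28.3%) and 4 with tumor spheres below (32.5%). IFI44L rose by 2.74 ± 0.35 (SE, adjusted p = 0.000566), ISG15 by 2.45 ± 0.52 (SE, adjusted p = 0.0127), OAS1 by 1.82 ± 0.26 (SE, adjusted p = 0.00103) and IFI6 by 1.46 ± 0.11 (SE, adjusted p = 4.77e-05). DDX60, PARP9, SAMD9 and IFIT1, each called higher in tumor spheres of the control line, had -0.03 ± 0.12, 0.04 ± 0.07, 0.10 ± 0.08 and 0.18 ± 0.10 (log2 fold change, SE) here, with adjusted p of 0.872, 0.64, 0.328 and 0.156. The count of genes called higher was 9 without adherent shSigma replicate 1 and 16 without adherent shSigma replicate 3, and it was 19 with the GC trend described below removed, where PARP9, SAMD9 and IFIT1 were among those called. IFIT1 was also called without adherent shSigma replicate 3.

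**Figure D2:**
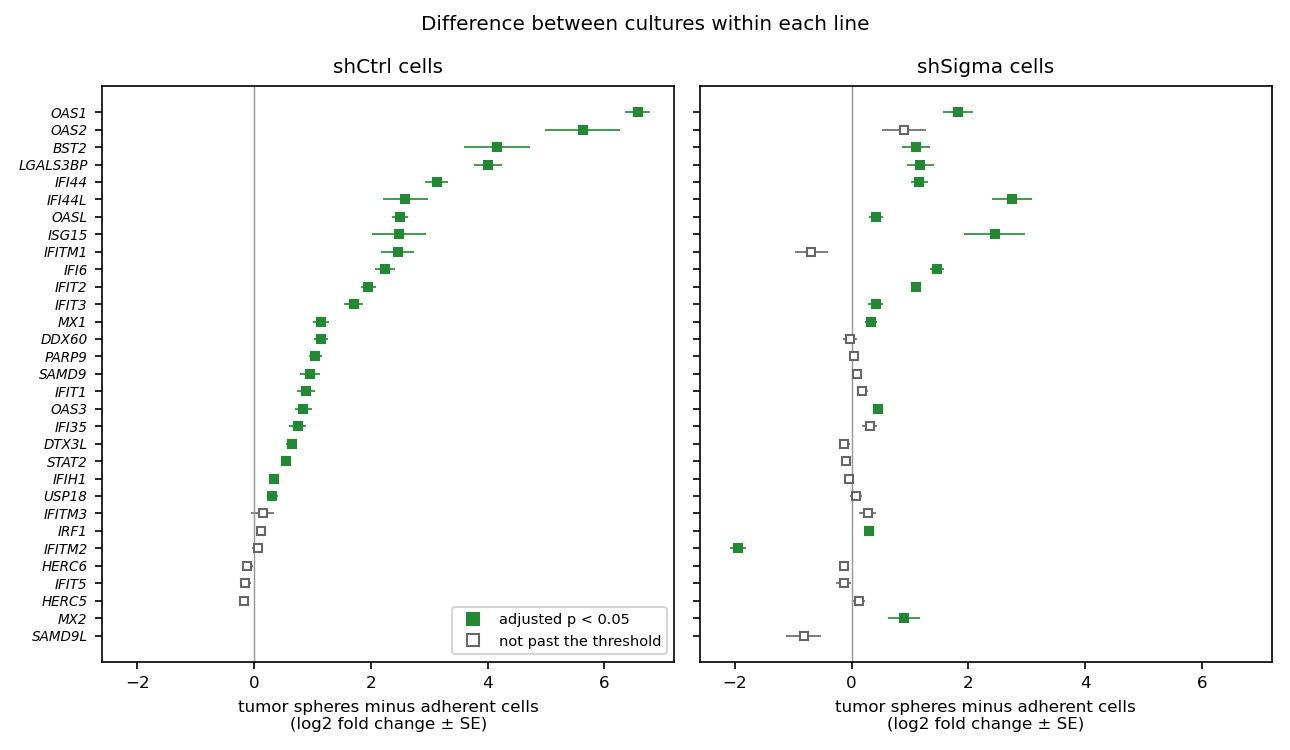
Log2 fold change of tumor spheres against adherent cells for 31 genes in the shCtrl line (left) and the shSigma line (right), with bars of 1 standard error, sorted by the shCtrl value and filled where the adjusted p was under 0.05. In the control line 23 of the 29 points are filled and lie to the right of 0, and in the shSigma line 14 of 31 are, with IFITM2 filled to the left; MX2 and SAMD9L were not tested in the control line.

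The third question was whether the hairpin's effect differed between the cultures, tested as the hairpin by culture term of a fit to the 12 libraries and given as the effect in tumor spheres minus that in adherent cells. Of 31 genes, 19 had a lower effect in tumor spheres, none a higher one and 12 did not pass, beside 15.6% called lower and 12.7% called higher of all 14175 genes tested. At an unadjusted p under 0.05 edgeR had 0 genes with a higher effect in tumor spheres, and DESeq2 called 0. The median difference was -0.80 against -0.03 for all genes, and 11 genes had a difference below -1 (6.04% of all genes) and 0 one above 1 (2.5%). The adherent shCtrl libraries, in which 24 of the 31 genes were lowest, enter this test, the knockdown comparison in adherent cells and the culture comparison in shCtrl cells. OAS1 and OAS2 had differences of -4.78 ± 0.39 (SE, adjusted p = 1.19e-06) and -4.74 ± 0.89 (SE, adjusted p = 0.00125). For IFITM1 it was -3.17 ± 0.42 (SE, adjusted p = 7.74e-05), for BST2 -3.08 ± 0.63 (SE, adjusted p = 0.00235) and for LGALS3BP -2.84 ± 0.35 (SE, adjusted p = 0.000232). IFITM3 had 0.11 ± 0.23 (SE, adjusted p = 0.777) and MX2 -0.29 ± 0.61 (SE, adjusted p = 0.772), so the difference between cultures in these genes was within its error, with a wide error for MX2. SAMD9L had -1.90 ± 0.83 (SE, adjusted p = 0.106). Beside the 19 genes, the 6 epithelial markers all had a lower effect in tumor spheres, by -3.55 to -0.38, and the part of cell state in the result was not tested.

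Replicate spread in adherent libraries was looked at gene by gene. The median SD of log2(CPM + 0.5) over the 31 genes was 0.090 in adherent shCtrl, 0.149 in adherent shSigma, 0.155 in tumor sphere shCtrl and 0.135 in tumor sphere shSigma libraries. For all 14175 genes it was 0.125, 0.131, 0.110 and 0.084 in the same order. The added 0.5 CPM compresses the SD of genes near 0, several of which are lowest in adherent shCtrl cells, and the number of the 31 genes that varied over 2-fold between libraries was 6, 3, 2 and 0 in the same order. In adherent shCtrl cells the 6 were ISG15, OAS2, BST2, SAMD9L, MX2 and IFI44L. All but ISG15 had at most 8 counts in a library there, so counting error alone can give such ratios. The share of all genes over 2-fold was not computed. ISG15 had the largest SD in adherent shCtrl (0.932), in adherent shSigma (1.02) and in tumor sphere shSigma (0.374), and OAS2 in tumor sphere shCtrl (0.481). The adherent libraries also differed in how GC-rich genes were represented. The median deviation of the 10% of genes richest in GC minus that of the 10% poorest was -0.49, -0.0042 and 0.50 on the log2 scale in adherent shCtrl replicates 1 to 3 and 0.21, 0.38 and -0.56 in adherent shSigma replicates 1 to 3, and lay between -0.22 and 0.16 in tumor spheres. Transcripts of ISG15 have 63.4% GC, above the limit of 61.4% for the top 10%, and those of LGALS3BP 61.2%. Both had their lowest adherent shSigma value in replicate 3, the library with -0.56, and their lowest adherent shCtrl value in replicate 1, the library with -0.49. IFIT2 varied between 1.86 and 2.09 CPM over the same adherent shCtrl libraries. With each library's GC trend removed, 21 genes were called higher and 2 lower in the adherent knockdown comparison, and the counts were also 21 and 2 with adherent shCtrl replicate 1 and adherent shSigma replicate 3 left out. Both alternatives were chosen after the data were seen.

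**Figure D3:**
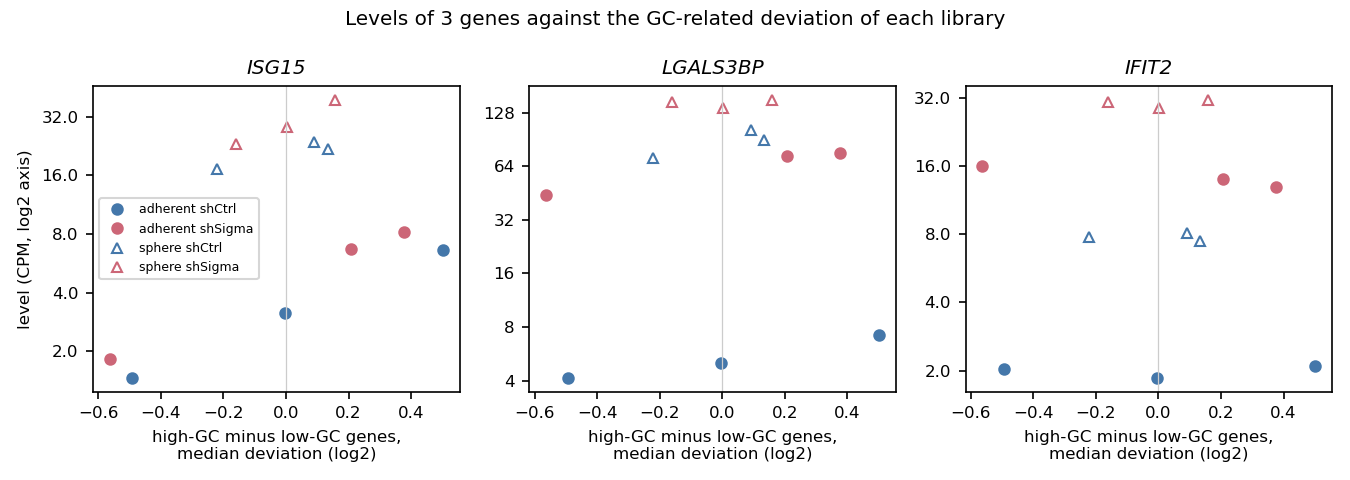
Level of ISG15, LGALS3BP and IFIT2 in each library (CPM, log2 axis) against that library's deviation of GC-rich from GC-poor genes (log2), with circles for adherent cells and triangles for tumor spheres, blue for shCtrl and red for shSigma. ISG15 runs from 1.46 to 8.14 CPM along the axis in adherent cells of both lines, while the adherent IFIT2 values of the 2 lines stay apart.

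Other genes of the pathway were read from fixed lists. Of 14 interferon genes, 13 were at or under the floor of 3 counts per library in every group, among them IFNB1 with 4 counts and IFNG with 8 over all 12 libraries. IFNE, an interferon of epithelia, rose in adherent cells by 1.10 ± 0.21 (SE, adjusted p = 0.00405) at 0.953 ± 0.203 and 2.13 ± 0.253 CPM in shCtrl and shSigma cells, and had 0.62 ± 0.32 (SE, adjusted p = 0.114) in tumor spheres. Of 8 receptor and kinase genes tested, 2 were higher and 2 lower with the hairpin in adherent cells, and 4 were higher and 2 lower in tumor spheres. Over all genes tested, 22.3% were called higher and 27.7% lower in adherent cells, and 30.2% and 30.9% in tumor spheres. The pathway lists were not tested against these shares. IFNLR1, a chain of the lambda interferon receptor, fell in both, with -1.06 ± 0.13 (SE, adjusted p = 0.000408) and -0.58 ± 0.10 (SE, adjusted p = 0.000257). JAK1 fell in both, with -0.90 ± 0.07 (SE, adjusted p = 7.32e-05) and -0.12 ± 0.05 (SE, adjusted p = 0.046). IFNAR2, a chain of the type I receptor, rose by 0.28 ± 0.08 (SE, adjusted p = 0.0208) and 0.51 ± 0.08 (SE, adjusted p = 0.000179), and JAK2 rose in adherent cells by 0.39 ± 0.10 (SE, adjusted p = 0.0142). IFNGR1 rose in tumor spheres by 0.35 ± 0.06 (SE, adjusted p = 0.000202).

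Among 13 nucleic acid sensing genes tested, 6 were higher and 3 lower in adherent cells, and 6 were higher and 2 lower in tumor spheres. The shares over all genes were 22.3% and 27.7% in adherent cells, and 30.2% and 30.9% in tumor spheres. DHX58, which encodes LGP2, rose by 3.93 ± 0.28 (SE, adjusted p = 4.06e-05) and 2.32 ± 0.22 (SE, adjusted p = 2.49e-06). STING1, the adaptor for cytosolic DNA sensing, rose by 2.71 ± 0.09 (SE, adjusted p = 2.94e-06) in adherent cells, from 15.5 ± 0.978 to 106 ± 5.92 CPM, and by 1.63 ± 0.09 (SE, adjusted p = 2.09e-08) in tumor spheres. TLR3, the endosomal receptor for double-stranded RNA, rose in tumor spheres by 1.66 ± 0.22 (SE, adjusted p = 4.55e-05). The largest decreases were those of TBK1 and CGAS in adherent cells, -0.39 ± 0.08 (SE, adjusted p = 0.00524) and -0.35 ± 0.07 (SE, adjusted p = 0.0045), and of RIGI and MAVS in tumor spheres, -0.26 ± 0.08 (SE, adjusted p = 0.0128) and -0.15 ± 0.06 (SE, adjusted p = 0.0395).

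Of 5 negative regulators tested, 2 were higher and none lower in adherent cells, and 2 were higher and 1 lower in tumor spheres. The shares over all genes were 22.3% higher and 27.7% lower in adherent cells, and 30.2% and 30.9% in tumor spheres. SOCS3 rose in adherent cells by 0.78 ± 0.15 (SE, adjusted p = 0.00353) and PIAS1 by 0.27 ± 0.09 (SE, adjusted p = 0.0327). In tumor spheres IRF2 and PIAS1 rose by 0.35 ± 0.10 and 0.26 ± 0.08 and PTPN2 fell, with -0.19 ± 0.07 (log2 fold change, SE, adjusted p 0.00793, 0.0137 and 0.0286). Of 4 guanylate-binding GTPase and gamma-interferon genes tested, 2 were higher and 1 lower in adherent cells. In tumor spheres 1 was higher and 1 lower, beside the same shares of all genes. GBP2 rose by 1.68 ± 0.13 (SE, adjusted p = 6.48e-05) and 1.20 ± 0.09 (SE, adjusted p = 3.91e-07) and GBP1 rose in adherent cells by 1.94 ± 0.25 (SE, adjusted p = 0.000555). WARS1, a tRNA synthetase induced by gamma interferon, fell in both, with -0.50 ± 0.07 (SE, adjusted p = 0.000843) and -1.04 ± 0.05 (SE, adjusted p = 1.67e-08).

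A further list of 30 induced genes had 25 tested. In adherent cells 9 were higher, 3 lower and 13 not called, beside 22.3% higher and 27.7% lower of all genes. In tumor spheres 11 were higher, 7 lower and 7 not called, beside 30.2% and 30.9%. The median log2 fold change of this list was 0.16 in both cultures, against 1.51 and 0.30 for the 29 and 30 genes tested of the 38 followed here. TNFSF10, the death ligand TRAIL, rose in adherent cells by 2.87 ± 0.74 (SE, adjusted p = 0.0155), from 8, 0 and 1 counts in the control libraries. PARP10 rose by 2.23 ± 0.55 (SE, adjusted p = 0.017) and 1.11 ± 0.15 (SE, adjusted p = 6.9e-05), and ZC3HAV1, the antiviral protein ZAP, rose in tumor spheres by 0.92 ± 0.05 (SE, adjusted p = 3.5e-08). LAMP3 fell in both, with -1.11 ± 0.11 (SE, adjusted p = 0.000188) and -1.02 ± 0.13 (SE, adjusted p = 4.26e-05). LAP3 fell in adherent cells, with -0.58 ± 0.10 (SE, adjusted p = 0.00229), and TRIM21 fell in tumor spheres, with -0.47 ± 0.12 (SE, adjusted p = 0.00618).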

How the data were processed

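The authors started directional libraries with 800 ng of total RNA, sequenced 75 bases from one end, aligned the reads with STAR 2.6.1c to GRCh38.p12 (per the submitters' processing notes) and deposited raw counts per Ensembl gene. The annotation, the use of strand and the handling of reads with several alignments are not given in the sources used here. Groups and replicate numbers come from the sample titles. The replicates are described as independent.

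Symbols came from GENCODE release 44 (26153 of 28747 identifiers matched). Each pair of groups was fitted on all genes passing filterByExpr (minimum count 10) with TMM scaling by edgeR 4.0.16 (R 4.3.3), robust quasi-likelihood F test, two-sided, Benjamini-Hochberg adjustment over all genes tested. The interaction used all 12 libraries. Calls needed an adjusted p under 0.05. The prior count in fitted fold changes (log2) was 0.125. CPM used TMM library sizes over all 12 libraries, and SDs are of 3 libraries. With 3 against 3 libraries an exact permutation test cannot go below 0.1, so none was used. Reads carry no molecular identifiers, so count intervals cover counting error only. Genes with values in every library are those called with an absolute log2 fold change over 1 in a knockdown comparison or in the interaction. Of each pathway list the 2 largest called changes in each direction are given by name. ISG15 and low-count genes outside these rules were picked with their values in view. The 38 genes and the lists were chosen with earlier results of these data known. The fitting code was tested on simulated data. Alternatives included DESeq2 1.42.0, its size factors, other filters, a replicate block and leaving out each library. Deviations of same-numbered libraries had correlations of -0.82 to 0.38, which cannot decide whether these libraries shared a batch. Some genes, among them the one the hairpin targets, are not reported here.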

Additional observations from a re-analysis of the deposited data

Results flagged for a closer look

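Of the 31 genes tested, 19 had a knockdown effect that differed between adherent cells and tumor spheres, by the interaction term of edgeR's quasi-likelihood fit (adjusted p under 0.05), and all 19 differences were negative, which means a smaller rise or a larger fall in tumor spheres. The differences (log2) of the RNA-handling effectors were -4.78 for OAS1, -4.74 for OAS2, -2.10 for OASL, -1.32 for IFIT3, -1.19 for DDX60, -0.88 for IFIT2, -0.88 for SAMD9 and -0.73 for IFIT1. Membrane and GTPase effectors had -3.17 for IFITM1, -3.08 for BST2, -2.04 for IFITM2 and -0.84 for MX1. LGALS3BP had -2.84, IFI44 -1.99 and IFI6 -0.80. PARP9 had -1.03 and DTX3L -0.79, and STAT2 and IFIH1 had -0.68 and -0.42. The adherent shCtrl libraries enter each of these values, and a value fitted for a gene at a few counts there (OAS1, OAS2, BST2) depends on the prior count. IFIH1 lost its call in 14 of 19 alternative fits (adjusted p of 0.0268, range 0.00236 to 0.126).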

How the results depend on the processing

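No result reversed. Of 162 recomputed summary values, 150 were rated the same and 12 moved. These values were counts of genes called and, for each group, the median replicate SD with DESeq2 size factors. A count was rated the same within 1.5 times the reported count, and an SD if it changed by less than its own value. Of 1485 recomputed values of single called genes, 1411 kept their direction and call and 74 lost the call. With an absolute log2 change over 1 also required, counts were 1 lower for the adherent knockdown, 5 higher and 4 lower for the knockdown in tumor spheres, 15 higher for culture in shCtrl cells, 8 higher for culture in shSigma cells and 11 lower for the interaction. Leaving out each library in turn gave 19 to 22 higher and 2 lower (adherent knockdown), 13 to 15 higher and 7 to 8 lower (knockdown in tumor spheres), 21 to 23 higher and 0 lower (culture in shCtrl cells), 9 to 16 higher and 1 to 2 lower (culture in shSigma cells), and 0 to 1 higher and 17 to 20 lower (interaction). The 9 came without adherent shSigma replicate 1, where IFIT3, IRF1, MX1, MX2 and OASL lost their calls, and the 1 higher, HERC5, without adherent shSigma replicate 3. The count of 2 lower for culture in shSigma cells was also given by 1 fit of all 12 libraries (SAMD9L added) and by removing the GC trend (IFITM1 added), and without adherent shSigma replicate 1 (SAMD9L) or 2 (IFITM1). The cause was not tested. Culture calls of IFIH1 and USP18 in shCtrl cells were lost without adherent shCtrl replicate 2 or tumor sphere shCtrl replicate 1 or 3, and that of USP18 also without adherent shCtrl replicate 1. In shSigma cells, tumor sphere shSigma replicate 1 decided IFIT3, IRF1, MX1 and OASL, replicate 2 MX2 and OASL, and replicate 3 IFIT3, MX1, MX2 and OASL, and adherent shSigma replicate 2 decided IFIT3 and MX1. The interaction call of IFIT1 was lost without tumor sphere shCtrl replicate 2 (adjusted p of up to 0.0505).

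DESeq2 called 20 higher and 2 lower, 13 and 8, 22 and 0, 11 and 1, and 0 and 18, in the order adherent knockdown, knockdown in tumor spheres, culture in shCtrl cells, culture in shSigma cells and interaction. In tumor spheres its knockdown calls left out BST2 and STAT2 and added IFI6. Requiring 10 counts in every library left 18 genes called for the adherent knockdown, 18 for culture in shCtrl cells and 15 for the interaction, since fewer genes were tested. Without the doubted adherent libraries (adherent shCtrl replicate 1 and adherent shSigma replicate 3, chosen after seeing the data) counts of genes called were 23 for the adherent knockdown, 22 and 17 for culture in shCtrl and shSigma cells, and 19 for the interaction, where IFI6 was lost (adjusted p of 0.067) and IFI35 gained.

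The replicate block, with the replicate number as a term, called 17 higher and 2 lower in the adherent knockdown (HERC5, IFI35, IFI6 and IRF1 lost), 14 and 8 in tumor spheres, 22 and 0 for culture in shCtrl cells (USP18 lost), 14 and 1 in shSigma cells, and 0 and 18 for the interaction (IFIH1 lost). Correlations of deviations between same-numbered libraries ran from -0.82 to 0.38, and no comparison had all of them above 0.1. For culture in shSigma cells, replicates 1 and 3 had 0.26 and 0.38. The GC trend of each library enters these deviations, so the correlations cannot decide whether same-numbered libraries shared a batch.

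Depth limits the genes near the floor. OAS2, IFI44L and SAMD9L were tested in some comparisons only, MX2 was not tested for culture in shCtrl cells, and 7 genes were tested in none.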
